A study of Mus musculus with 123 samples.

Results

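The integrated stress response genes described here are Atf4, Atf5, Ddit3, Atf3, Trib3, Ppp1r15a, Asns, Chac1, Sesn2 and Ddit4, 10 of the 29022 genes counted in single mouse embryos. They were chosen by name from the pathway, with earlier results of these data known. All 10 carried unique molecular identifiers (UMIs, random tags that let copies of a molecule made by PCR be counted once), all 10 passed the filter on low counts (a UMI in 0.5 or more of the embryos of some stage), and Atf3, with 341 UMIs over all embryos, was the sparsest.

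Each library is 1 embryo, and the embryos fall into 16 groups that differ by line, genotype and stage, all labelled B6C3F1, a hybrid mouse strain. In the Oct4 line the gene Pou5f1, which encodes the transcription factor Oct4, was floxed in mothers that carried Zp3-Cre, a recombinase driven in growing oocytes, and in the Sox2 line the same was done for Sox2. Ctrl embryos of both lines therefore lacked the maternal gene and kept an intact paternal allele, while KO embryos also received a paternal KO allele, marked with mKO2 (Oct4) or EGFP (Sox2) under the PGK promoter, and were picked by that fluorescence. MWT embryos had the maternal gene intact. Morulae were taken at E2.75, and the inner cell masses (ICMs), the cells inside the blastocyst from which the embryo proper forms, were taken from embryos cultured in KSOM medium with 1 µM of the MEK inhibitor PD0325901 to the early (E3.75) or late (E4.5) blastocyst, with the outer layer removed by immunosurgery. Stage, culture, inhibitor and isolation thus changed together between morula and ICM and cannot be told apart. Each line had 8 Ctrl and 8 KO embryos at each of 3 stages, and MWT embryos numbered 7 morulae, 5 early ICMs and 8 late ICMs in the Oct4 line and 7 early ICMs in the Sox2 line. For the 13 Oct4 MWT ICMs the titles give a later stage than the source names, and the titles were followed. In the 5 embryos titled as Oct4 MWT early ICMs, whose labels name no inhibitor, Sox2 stood at 139 to 297 CPM (an embryo's UMIs of a gene scaled to its total), against 2.35 to 31.5 CPM in the 7 Oct4 MWT morulae.

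Total UMIs per embryo ran from 525755 to 1344035, so that 1 CPM is close to 1 UMI in an embryo. The targeted genes followed the labels in the ICMs: Pou5f1 reached at most 4.73 CPM in any Oct4-KO embryo and at least 13.4 CPM in any Oct4 Ctrl embryo, and Sox2 was at 7.74 to 36.4 CPM in Sox2-KO early ICMs against 72.6 to 194 CPM in their Ctrl embryos. In Sox2 morulae the ranges touched, with 0 to 3.32 CPM in KO and 2.91 to 34.2 CPM in Ctrl embryos. Each library is a whole embryo or a whole ICM, in which fewer cells of a type and less RNA per cell cannot be told apart.

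The integrated stress response is the program by which cells answer amino acid shortage, misfolded protein in the endoplasmic reticulum, heme shortage or double-stranded RNA. Kinases that sense these states phosphorylate the initiation factor eIF2, which lowers translation in general but lets the ribosome reach the coding sequence of Atf4, so that much of the control over the ATF4 protein is not seen in its mRNA. ATF4 then binds, with C/EBP partners, to C/EBP-ATF response elements and raises genes for amino acid synthesis and uptake, while Ppp1r15a, which encodes GADD34, directs the phosphatase that resets eIF2. Sesn2 and Ddit4 lower signaling through mTORC1, the amino acid sensor that sets the rate of cell growth.

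The gene bodies lie, in build mm10, as follows. The regulators are Atf4 (chr15:80255184-80257541, plus strand), Atf5 (chr7:44812256-44816658, minus strand), Ddit3 (chr10:127290774-127296288, plus strand), Atf3 (chr1:191170296-191218039, minus strand) and Trib3 (chr2:152337422-152344032, minus strand). The phosphatase subunit and the effectors are Ppp1r15a (chr7:45522916-45526268, minus strand), Asns (chr6:7675169-7693254, minus strand), Chac1 (chr2:119351229-119354381, plus strand), Sesn2 (chr4:132492032-132510501, minus strand) and Ddit4 (chr10:59949669-59951834, minus strand).

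The promoters of 3 members that fell together in late Oct4-KO ICMs are printed here, since they hold the core of the element that ATF4 and its C/EBP partners bind. Each is the 250 bases before the annotated start in RefSeq (build GRCm38.p6), read 5′ to 3′ on the gene's own strand, with matches in capitals. Asns lies on the minus strand at chr6:7693210-7693459, Chac1 on the plus strand at chr2:119350992-119351241 and Atf3 on the minus strand at chr1:191183334-191183583. These RefSeq starts differ from the starts of the gene bodies given above. The Asns and Chac1 windows overlap the first bases of those gene bodies, and the Atf3 window lies wholly inside its gene body, at an internal start.
Asns: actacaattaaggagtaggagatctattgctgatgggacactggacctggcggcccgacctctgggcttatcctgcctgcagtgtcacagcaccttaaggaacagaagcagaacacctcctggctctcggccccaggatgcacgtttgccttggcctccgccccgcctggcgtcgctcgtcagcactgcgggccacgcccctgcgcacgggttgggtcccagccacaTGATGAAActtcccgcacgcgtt
Chac1: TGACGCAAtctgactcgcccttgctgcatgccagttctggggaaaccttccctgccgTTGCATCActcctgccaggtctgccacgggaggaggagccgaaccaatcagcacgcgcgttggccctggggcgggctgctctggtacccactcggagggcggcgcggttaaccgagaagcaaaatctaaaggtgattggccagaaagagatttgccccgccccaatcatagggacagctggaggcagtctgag
Atf3: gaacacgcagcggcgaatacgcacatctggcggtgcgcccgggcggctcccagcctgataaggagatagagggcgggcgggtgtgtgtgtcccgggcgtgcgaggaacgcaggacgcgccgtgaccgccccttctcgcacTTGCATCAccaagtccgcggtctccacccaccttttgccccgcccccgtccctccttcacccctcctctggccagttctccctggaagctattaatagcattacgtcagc

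The motif searched was TGATGNAA, on both strands, in a window of 250 bases before and 50 after the start, and 3.97% of all 32851 promoters held it in that window. In Asns the match TGATGAAA starts 23 bases before the RefSeq start, which is inside the gene body given above. In Chac1 (193 bases before) and in Atf3 (110 bases before) the match is TTGCATCA, the motif read on the opposite strand. The first 8 bases shown for Chac1 are TGACGCAA, a variant of the cAMP response element that 0.490% of promoters held. Trib3 had a match only in the 50 bases after its start, and the promoters of Atf4, Atf5 (both entries), Ddit3, Sesn2 and Ddit4 had none. Ppp1r15a held the full cAMP response element TGACGTCA, which reads alike on both strands and which 1.79% of promoters held, 12 bases before its start. The endoplasmic reticulum stress element (ERSE), held by 0.119% of promoters, was found in no member. A match of letters is a description of this window and says nothing of binding in these embryos.

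**Figure D1:**
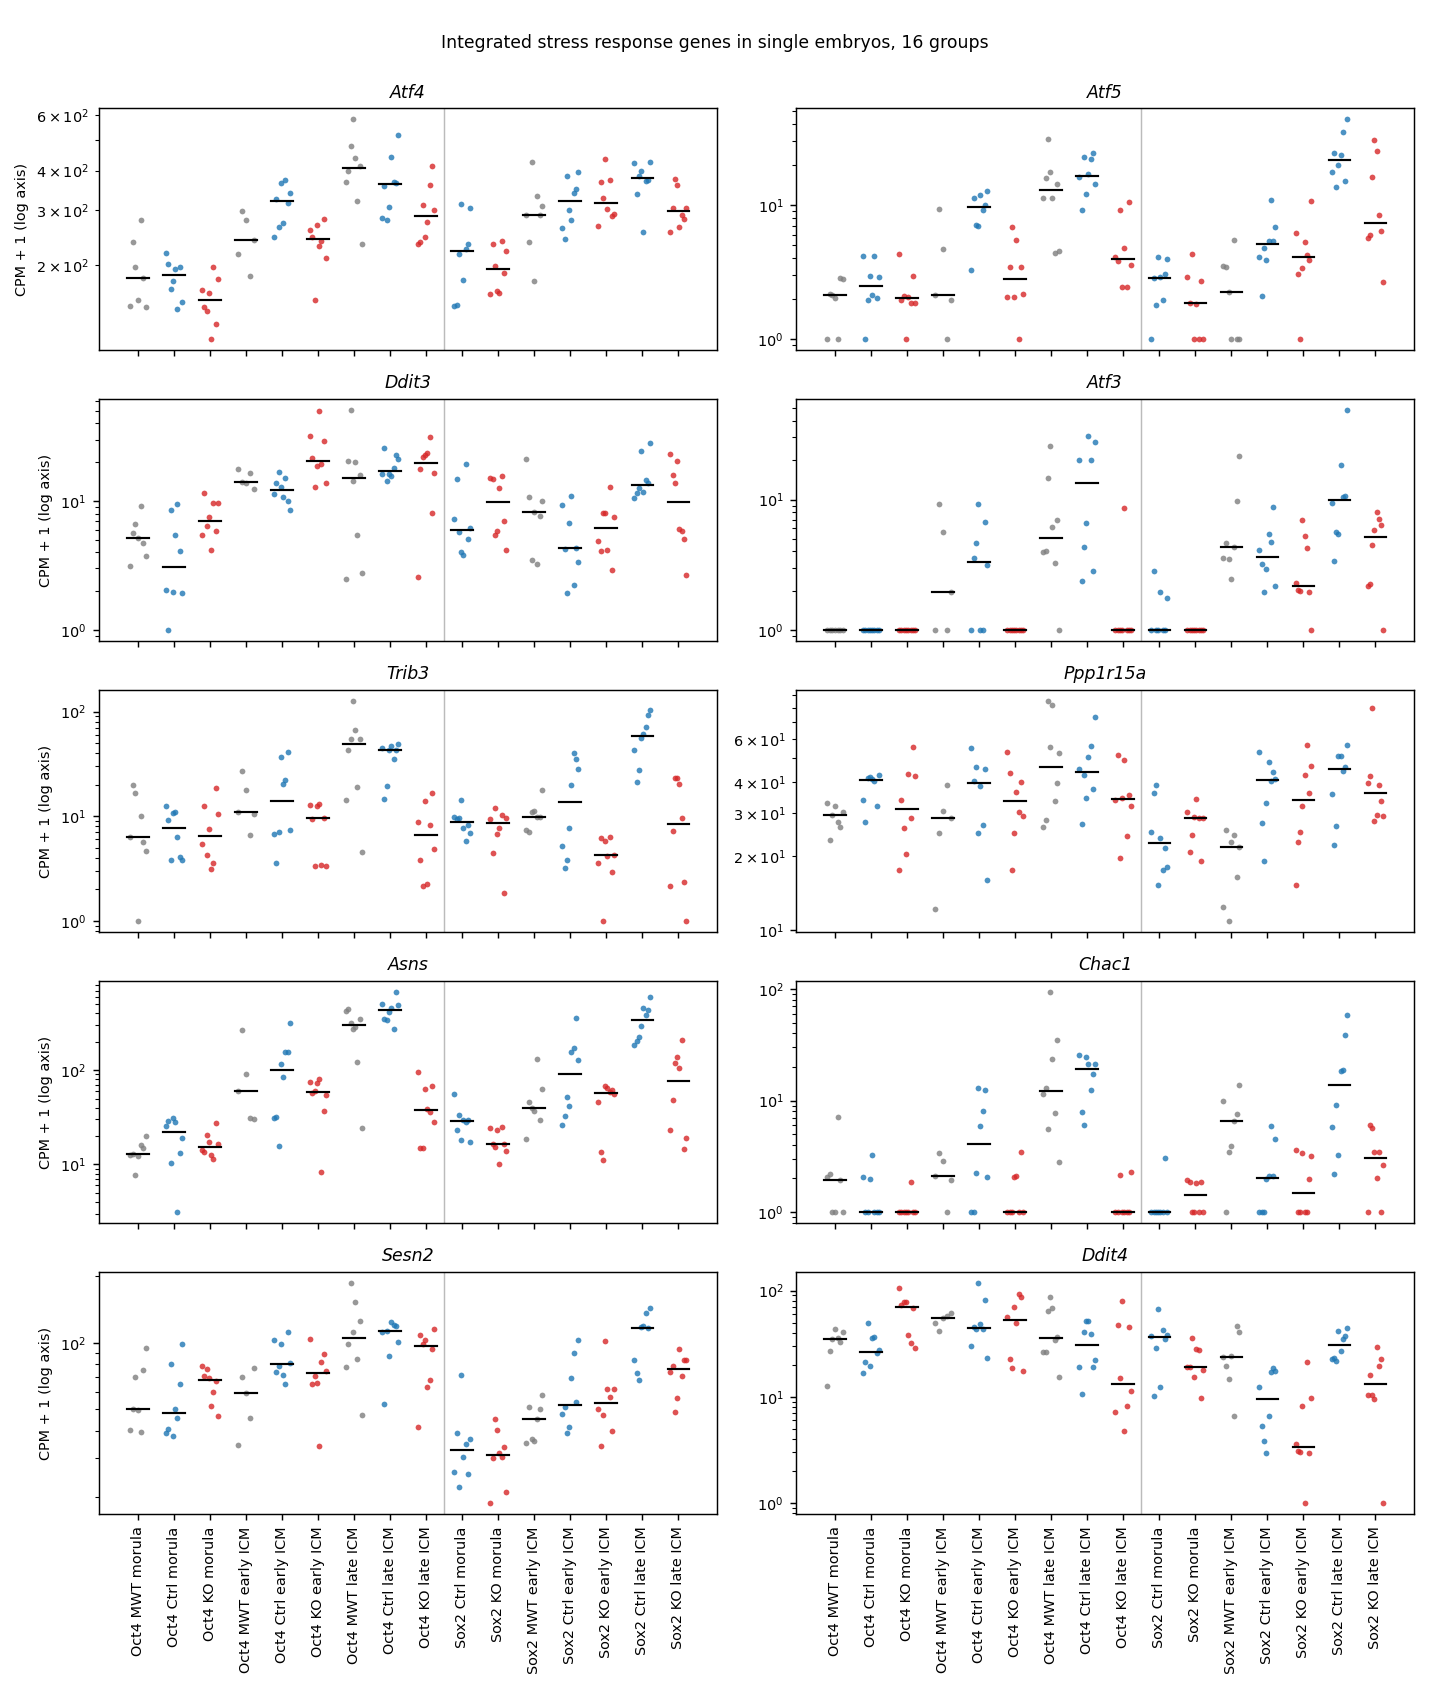
Level of each of the 10 genes in every embryo (log axis, CPM plus 1) across the 16 groups, with 1 point per embryo (blue Ctrl, red KO, grey MWT) and a bar at the group median. Asns in late ICMs separates fully with loss of Oct4, with all 8 Oct4-KO embryos at 13.97 to 95.2 CPM and all 8 Oct4 Ctrl embryos at 270 to 671 CPM. The share of all genes that separate fully was not counted.

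Atf4, the transcription factor at the center of the response, was measured most securely, with 29364 UMIs in all, and no embryo was below 115 CPM. Its group means ran from 154 CPM in Oct4-KO morulae to 403 CPM in Oct4 MWT late ICMs, and when the 16 groups were ordered by median, the ranges of all neighbors in that order overlapped. The same overlap of neighbors held for the other 9 members. Neighbors in such an order are close by construction, so this overlap does not bear on the comparisons of genotype or stage below. Atf5, a close relative of Atf4 that is likewise controlled at translation, had group means from 1.00 CPM in Oct4 MWT morulae to 23.1 CPM in Sox2 Ctrl late ICMs. Ddit3, which encodes the factor CHOP, ran from 3.33 CPM in Oct4 Ctrl morulae to 23.7 CPM in Oct4-KO early ICMs. Atf3, another stress-induced factor of the family, had no UMI in any Oct4 morula of any genotype, and its highest group mean was 13.3 CPM in Oct4 Ctrl late ICMs. Trib3, a pseudokinase that is induced by ATF4 and CHOP and restrains both, ran from 3.29 CPM in Sox2-KO early ICMs to 58.4 CPM in Sox2 Ctrl late ICMs. These values count molecules and are not divided by gene length, so they are compared between groups and not between genes.

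Among the effectors, Asns, the enzyme that makes asparagine, ran from a mean of 12.9 CPM in Oct4 MWT morulae to 438 CPM in Oct4 Ctrl late ICMs. Chac1, which degrades glutathione, ran from 0.108 CPM (1 UMI in 8 embryos) in Oct4-KO morulae to 23.1 CPM in Oct4 MWT late ICMs. Ppp1r15a stayed in a narrower range, 18.1 CPM in Sox2 MWT early ICMs to 49.4 CPM in Oct4 MWT late ICMs. Sesn2 ran from 30.5 CPM in Sox2-KO morulae to 110 CPM in Oct4 MWT late ICMs, and Ddit4 from 5.60 CPM in Sox2-KO early ICMs to 61.8 CPM in Oct4-KO morulae.

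Both Atf5 and Ddit3 share exons with genes on the other strand in the annotation at hand (GENCODE vM21). Atf5 overlaps Nup62, a nuclear pore gene with 7573 UMIs against the 620 of Atf5, and Il4i1 with 174 UMIs. Ddit3 overlaps Mars, a methionyl-tRNA synthetase with 13405 UMIs against 1136, and Gm4189 with 107 UMIs, and on its own strand it shares exons with another protein-coding entry of the same name that is not a row of the count table. Ppp1r15a (3638 UMIs) overlaps Tulp2 (49 UMIs). Whether counting used the strand is not stated, so shared reads could have gone to either gene and the values of Atf5 and Ddit3 are uncertain.

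How the members behave as the Ctrl ICM forms was compared within each line with edgeR across all 14053 genes tested, a gene being called where the adjusted p was under 0.05 and the log2 fold change was 1 or more in size. From Oct4 Ctrl morulae to early ICMs, 6 of the 10 members were called higher, Atf5, Ddit3, Atf3, Trib3, Asns and Chac1, beside 14.1% of all genes. Asns was at 2.13, 21.2 and 30.1 CPM (lowest, median and highest of 8 embryos) in morulae and at 14.6, 98.9 and 317 CPM in early ICMs, a log2 fold change of 2.47 ± 0.46 (SE, adjusted p = 3.7e-06). Here 6 of the 8 early ICMs were above every morula. Atf3 had 0 UMIs in the 8 morulae and 19 in the 8 early ICMs, at least 7.32-fold higher when the morulae are set at a floor of 3 UMIs over the group. Atf4 rose by less than the fold minimum, with a log2 fold change of 0.68 ± 0.14 (adjusted p = 2.1e-05), although all 8 early ICMs, at 245 to 373 CPM, lay above all 8 morulae, at 144 to 217 CPM. How many of all genes separated in this way was not counted. Mars, which overlaps Ddit3, rose by 1.15 on the log2 scale (adjusted p = 1.9e-12) beside 1.64 ± 0.44 for Ddit3. On the rlog values Ddit3 and Asns were still called, and the calls of Atf5 (0.97), Atf3 (0.65) and Chac1 (0.75) were lost below the fold minimum and that of Trib3 (0.64, adjusted p = 0.12) also by its p.

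In the Sox2 line the same step gave 3 members called higher, Asns, Atf3 and Atf5, where 17.2% of all genes were, and 1 called lower, Ddit4, where 14.7% of all genes were. Asns rose by 1.99 ± 0.43 on the log2 scale (adjusted p = 5.5e-05). The call of Atf5 was lost without the filter on low counts (1.24, adjusted p = 0.067), that of Atf3 with thinned counts (2.19, adjusted p = 0.052), and both on the rlog values (0.53 and 0.69). The summed epiblast markers moved with this step, at 956 to 1245 CPM in morulae and 2576 to 3948 CPM in early ICMs of the Oct4 Ctrl embryos and at 959 to 1551 CPM and 1758 to 3938 CPM in the Sox2 Ctrl embryos, with 9 and 5 of 10 called higher and 0 lower. The trophectoderm sum was 605 to 1280 CPM and 476 to 1460 CPM in the Oct4 line and 761 to 1145 CPM and 157 to 640 CPM in the Sox2 line, and of 8 primitive endoderm markers tested 5 were called higher and 1 lower in each line. The sum of 10 immediate early genes was 64.0 to 144 CPM in Sox2 Ctrl morulae and 273 to 591 CPM in early ICMs. In the Oct4 line it was 58.6 to 169 CPM and 130 to 400 CPM. The mitochondrial share of UMIs was 2.87 to 4.46% and 4.42 to 5.24% in the Sox2 line. It was 4.47 to 6.33% and 4.54 to 5.84% in the Oct4 line. The part of these markers, immediate early genes and shares in the members' differences was not tested. Ddit4 fell from 9.27, 35.2 and 66.3 CPM to 1.94, 8.47 and 17.7 CPM, a log2 fold change of -1.89 ± 0.46 (adjusted p = 3.0e-04), and 4 of the 8 early ICMs were below every morula. In the Oct4 line Ddit4 was at 15.9, 25.6 and 48.1 CPM in Ctrl morulae and at 22.4, 43.6 and 116 CPM in Ctrl early ICMs, a log2 fold change of 0.81 ± 0.39 that was not called (adjusted p = 0.081). Whether this step differed between the lines was not tested.

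From early to late ICM the members called in Ctrl embryos were all called higher. In the Oct4 line 5 of 10 were called higher, Atf3, Chac1, Asns, Trib3 and Atf5, beside 9.52% of all genes, with Asns up by 2.01 ± 0.39 (adjusted p = 2.5e-05) and Chac1 by 1.83 ± 0.52 (adjusted p = 0.0040) on the log2 scale. Without Oct4 Ctrl early ICM 1, which held the lowest Atf5 of its group, Atf5 and Trib3 were no longer called and 3 members were. The call of Atf5 was also lost with scaling by total UMIs (0.98, adjusted p = 0.042), without the filter on low counts (0.97, adjusted p = 0.080), with each embryo thinned to the smallest total (0.72, adjusted p = 0.20) and on the rlog values (0.73, adjusted p = 0.0071). In the Sox2 line 7 of 10 were called higher, Atf5, Ddit3, Atf3, Trib3, Asns, Chac1 and Ddit4, beside 1.94% of all genes. Chac1 had 10 UMIs in the 8 early and 127 UMIs in the 8 late ICMs, a log2 fold change of 3.56 ± 0.60 (adjusted p = 5.8e-05). Atf5 and Ddit4 separated fully, with Ddit4 at 1.94 to 17.7 CPM early and 20.8 to 43.8 CPM late, and Atf5 at 1.09 to 9.85 CPM early and 12.7 to 42.6 CPM late. How many of all genes separated fully in this step was not counted. The call of Atf3 was lost without Sox2 Ctrl late ICM 2-1 (adjusted p = 0.058), with DESeq2 (adjusted p = 0.062), with thinned counts (adjusted p = 0.072) and on the rlog values (0.98, below the fold minimum). Atf4 changed by 0.28 ± 0.14 in the Oct4 line and by 0.18 ± 0.14 in the Sox2 line (log2 fold changes, adjusted p = 0.11 and 0.47), and Ppp1r15a and Sesn2 were not called in either. Sesn2 passed the p threshold in the Sox2 line, at a log2 fold change of 0.78 ± 0.21 (adjusted p = 0.0094), below the fold minimum. The summed immediate early genes separated the same groups, at 130 to 400 CPM in early and 459 to 1448 CPM in late Oct4 Ctrl ICMs and at 273 to 591 CPM and 642 to 1503 CPM in the Sox2 line. The part of these genes, which report recent signaling and handling, in the members' rise was not tested.

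The members called in the step from early to late ICM depended on which late embryos were used. The Ctrl and KO late ICMs are numbered with a leading 1 or 2, called label sets 1 and 2 here, and the early ICMs and the MWT late ICMs carry no such number. Chac1 in Sox2 Ctrl late ICMs was at 1.18 to 8.09 CPM in set 1 and 17.3 to 58.0 CPM in set 2, with 4 embryos in each. Against the 8 early ICMs its log2 fold change was 1.46 (adjusted p = 0.32) with set 1 and 4.37 (adjusted p = 5.8e-07) with set 2. With set 1 alone edgeR called 2 members higher in the Sox2 line, Atf5 and Ddit3, beside 0.79% of all genes, and Asns was at 0.91 (adjusted p = 0.28), Trib3 at 1.09 (adjusted p = 0.22), Ddit4 at 1.49 (adjusted p = 0.11) and Atf3 at 0.63 (adjusted p = 0.72). With set 2 alone it called 8, the 7 above and Sesn2, beside 2.55%. In the Oct4 line Atf3, Asns and Chac1 were called higher with either set, beside 8.32% of all genes with set 1 and 7.32% with set 2, and Atf5 and Trib3 with neither. The labels do not say what the sets are, and whether the step differed between them was not tested.

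Loss of Oct4 or Sox2 was compared with Ctrl embryos of the same line and stage. In morulae no member was called in either line. For Oct4-KO morulae, where 0.804% of all genes were called, edgeR and DESeq2 each called 0 members, and 2 had an unadjusted p under 0.05. These were Ddit4, at 27.6, 69.2 and 105 CPM in KO and 15.9, 25.6 and 48.1 CPM in Ctrl morulae (log2 fold change 1.19 ± 0.39, adjusted p = 0.11), and Ddit3 (1.03 ± 0.46, adjusted p = 0.33). Of the KO morulae, 5 of 8 held more Ddit4 than any Ctrl morula, so the groups overlapped. For Sox2-KO morulae, where 0.00712% of all genes were called, edgeR and DESeq2 each called 0 members and 0 had an unadjusted p under 0.05.

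In early Oct4-KO ICMs the members split. Ddit3 was called higher, beside 4.77% of all genes, and Atf3, Chac1 and Atf5 were called lower, beside 6.11%. DESeq2 also called 4 members, and limma on the deposited rlog values called 0, where Atf5 (-0.84, adjusted p = 0.0033), Ddit3 (0.77, adjusted p = 0.021) and Chac1 (-0.70, adjusted p = 0.047) passed the p threshold but not the fold minimum on these shrunken values. Ddit3 was at 11.8, 19.5 and 48.9 CPM in KO and at 7.46, 11.1 and 15.8 CPM in Ctrl ICMs, a log2 fold change of 1.12 ± 0.36 (adjusted p = 0.017), and 6 of 8 KO embryos were above every Ctrl embryo. Mars, on the other strand, had a log2 fold change of -0.44 there. The call of Ddit3 rested on Oct4-KO early ICM 11, without which the log2 fold change was 0.86 (adjusted p = 0.093). This embryo had the highest mitochondrial share of UMIs of all embryos, 7.26%, and the share was 5.05, 5.90 and 7.26% in KO and 4.54, 4.89 and 5.84% in Ctrl ICMs, whose part in the members' values was not tested.

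Those called lower in the early Oct4-KO ICMs were all of low count. Atf3 had 0 UMIs in all 8 KO ICMs and 19 UMIs in the 8 Ctrl ICMs, of which 3 also had none, and was at least 6.47-fold lower against the floor of 3 UMIs over the group. Chac1 had 4 UMIs in the KO and 32 in the Ctrl ICMs, a log2 fold change of -2.68 ± 0.78 (adjusted p = 0.0074). With every embryo thinned to the smallest total, the calls of Chac1 (-2.07, adjusted p = 0.057) and Ddit3 (1.03, adjusted p = 0.073) were lost and Trib3 (-1.33, adjusted p = 0.049) was called lower. Atf5 was at 0, 1.80 and 5.91 CPM in KO and 2.30, 8.63 and 11.7 CPM in Ctrl ICMs (-1.68 ± 0.48 on the log2 scale, adjusted p = 0.0061), and 4 of 8 KO ICMs were below every Ctrl ICM. Nup62, which overlaps Atf5, had a log2 fold change of -0.33 (adjusted p = 0.069). Asns was at 7.32, 57.5 and 78.9 CPM in KO and 14.6, 98.9 and 317 CPM in Ctrl ICMs, which overlapped, and its log2 fold change of -0.98 ± 0.41 was not called (adjusted p = 0.079). Without Oct4 Ctrl early ICM 1 it was called, at -1.12 (adjusted p = 0.045). Trib3 (-1.10 ± 0.48, adjusted p = 0.097) and Atf4 (-0.33 ± 0.14, adjusted p = 0.070) were not called.

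Late Oct4-KO ICMs had the most members called among the KO comparisons. Asns, Chac1, Atf3, Trib3 and Atf5 were called lower, 5 of 10 members where 8.85% of all genes were, and 0 of 10 were called higher, where 9.25% of all genes were. The mitochondrial share of UMIs was 2.62, 4.403 and 5.99% in KO and 3.204, 6.19 and 6.48% in Ctrl ICMs, and its part in the members' values was not tested. Asns was at 13.97, 36.3 and 95.2 CPM in the 8 KO ICMs and at 270, 438 and 671 CPM in the 8 Ctrl ICMs, so the groups did not overlap. Its log2 fold change was -3.22 ± 0.43 (adjusted p = 1.95e-09), which is 9.31-fold lower. Chac1 had 2 UMIs in the 8 KO ICMs, in 2 different embryos, and 88 UMIs in the Ctrl ICMs, where each embryo had at least 5.01 CPM. The ratio of the summed counts, KO over Ctrl, was 0.0202, with an exact 95% interval of 0.00241 to 0.0753 for counting error, and again no KO embryo reached the lowest Ctrl embryo.

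Trib3 was at 1.16, 5.55 and 15.5 CPM in the KO and 13.7, 41.8 and 48.2 CPM in the Ctrl late ICMs of the Oct4 line, a log2 fold change of -2.34 ± 0.49 (adjusted p = 6.7e-05). Only 1 KO embryo entered the Ctrl range. Atf3 was at 0 in 7 of 8 KO ICMs and at 7.58 CPM in the other, against 1.37, 12.3 and 29.5 CPM in Ctrl ICMs (-3.51 ± 0.75, adjusted p = 1.3e-04). Atf5 was at 1.45, 2.96 and 9.54 CPM in KO and 8.21, 15.6 and 23.6 CPM in Ctrl ICMs (-1.78 ± 0.43, adjusted p = 5.4e-04), with Nup62 at -0.41 (adjusted p = 0.017). For both of these genes, 7 of 8 KO embryos lay below every Ctrl embryo. How many of all genes had most or all KO embryos below every Ctrl embryo was not counted.

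The other 5 members were not called in late Oct4-KO ICMs. Atf4 itself was at 232, 285 and 413 CPM in KO and 277, 360 and 518 CPM in Ctrl ICMs, a log2 fold change of -0.20 with a 95% interval of -0.46 to 0.07. The corresponding intervals were -0.67 to 0.76 for Ddit3, -0.97 to 0.72 for Ddit4, -0.56 to 0.25 for Sesn2 and -0.76 to 0.17 for Ppp1r15a.

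**Figure D2:**
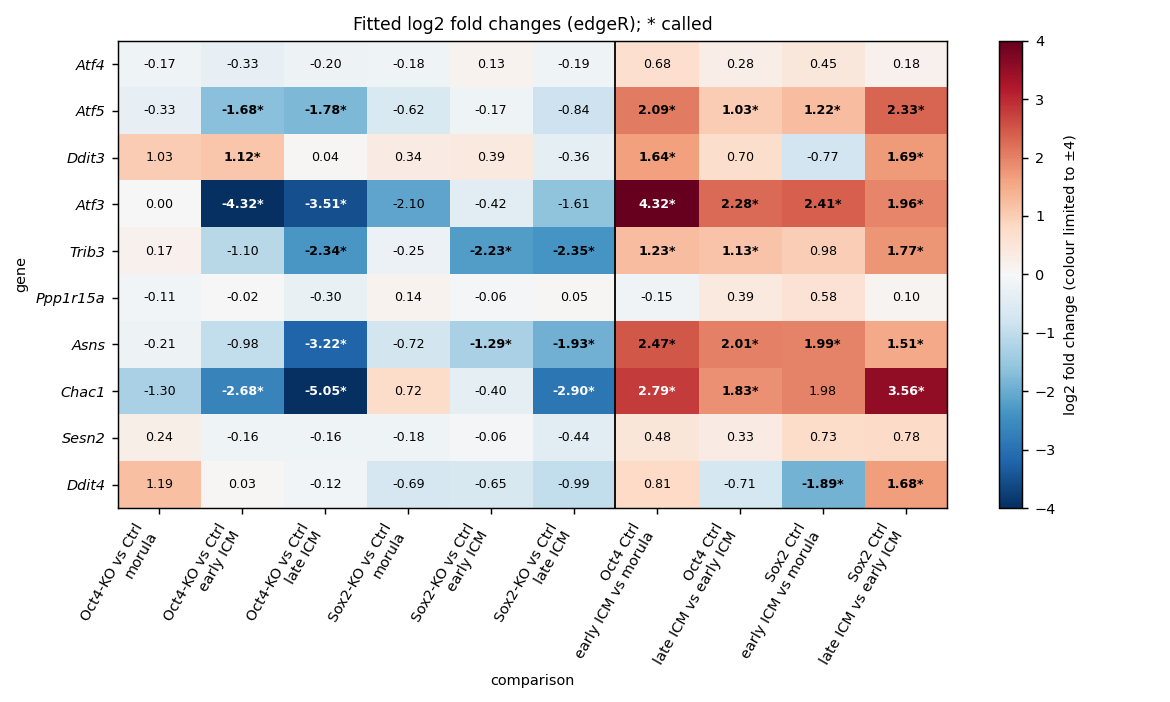
Log2 fold change of each member in the KO comparisons and the Ctrl stage comparisons, from the edgeR fit, with an asterisk where the gene was called. In late Oct4-KO ICMs Asns stands at -3.22 and Chac1 at -5.05 while Atf4 stands at -0.20.

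Fewer members were called in Sox2-KO ICMs. In early ICMs Trib3 and Asns were called lower, 2 of 10 where 1.69% of all genes were, and 0 of 10 higher, where 1.57% of all genes were. Trib3 was at 0, 3.23 and 5.37 CPM in KO and 2.18, 12.8 and 39.4 CPM in Ctrl ICMs, a log2 fold change of -2.23 ± 0.55 (adjusted p = 0.0041). The Ctrl embryos fell widely apart: 5 of 8 had 6.78 to 39.4 CPM, above every KO embryo, and the other 3 lay within the KO range. Asns was at 10.0, 56.1 and 66.4 CPM in KO and at 24.9, 89.4 and 355 CPM in Ctrl ICMs (-1.29 ± 0.42, adjusted p = 0.041), and DESeq2 did not call it (adjusted p = 0.0504).

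In late Sox2-KO ICMs Asns, Trib3 and Chac1 were called lower, 3 of 10 where 3.61% of all genes were, and 0 of 10 higher, where 3.34% of all genes were. Asns was at 13.5, 75.7 and 207 CPM in the KO and 183, 340 and 596 CPM in the Ctrl ICMs, a log2 fold change of -1.93 ± 0.40 (adjusted p = 1.8e-04), and 7 of 8 KO ICMs lay below every Ctrl ICM. Trib3 was at 0, 7.41 and 22.1 CPM in KO and 20.02, 56.9 and 103 CPM in Ctrl ICMs (-2.35 ± 0.43, adjusted p = 2.5e-05). Chac1 had 14 UMIs in KO and 127 in Ctrl ICMs (-2.90 ± 0.58, adjusted p = 9.4e-05), and 3 of 8 KO ICMs lay below the lowest Ctrl ICM. Atf3 (-1.61 ± 0.60, adjusted p = 0.059), Ddit4 (-0.99 ± 0.45, adjusted p = 0.13) and Atf5 (-0.84 ± 0.36, adjusted p = 0.11) did not pass, and with scaling by total UMIs Atf3 was called lower (-1.74, adjusted p = 0.039).

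KO and Ctrl late ICMs were also compared within each of the 2 label sets. Every Sox2 Ctrl late ICM of set 2 held more Asns, Trib3 and Chac1 than any of set 1. In set 1 Asns was at 183 to 291 CPM in the 4 Ctrl and 22.3 to 138 CPM in the 4 KO ICMs, a difference of -1.76 in mean log2(CPM + 1) with a two-sided exact permutation p of 0.029, the smallest that 4 against 4 embryos allow. In set 2 it was at 388 to 596 CPM in Ctrl and 13.5 to 207 CPM in KO ICMs, a difference of -3.23 with the same exact p of 0.029. Chac1 in set 1 was at 1.18 to 8.09 CPM in Ctrl and 0 to 4.99 CPM in KO ICMs (-0.41, exact permutation p = 0.66), and in set 2 at 17.3 to 58.0 CPM and 0 to 2.45 CPM (-3.84, exact permutation p = 0.029). Fitted within set 1 alone, edgeR called 0 members lower in late Sox2-KO ICMs, where 1.26% of all genes were, and 0 higher, with Asns at -1.43 (adjusted p = 0.086), Trib3 at -1.42 (adjusted p = 0.19) and Chac1 at -0.37 (adjusted p = 0.89). Within set 2 alone it called 4 lower, where 2.47% of all genes were, the 3 above and Ddit3, which was at 1.65 to 5.05 CPM in KO and 10.8 to 27.2 CPM in Ctrl ICMs. With the set as a term in the fit, the same 3 members were called lower as without it, where 3.18% of all genes were.

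In the Oct4 line, the KO minus Ctrl difference of Asns was -3.59 in set 1 (exact permutation p = 0.016, 4 KO and 5 Ctrl ICMs) and -3.47 in set 2 (exact permutation p = 0.057, the smallest that 4 against 3 allow), on the log2(CPM + 1) scale. Within set 1 alone edgeR called lower all 5 members named for late Oct4-KO ICMs, where 7.05% of all genes were, and within set 2 alone Asns, Trib3 and Chac1, where 5% were. With the set as a term, 8.64% of all genes were called lower, and so were the 5 members.

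**Figure D3:**
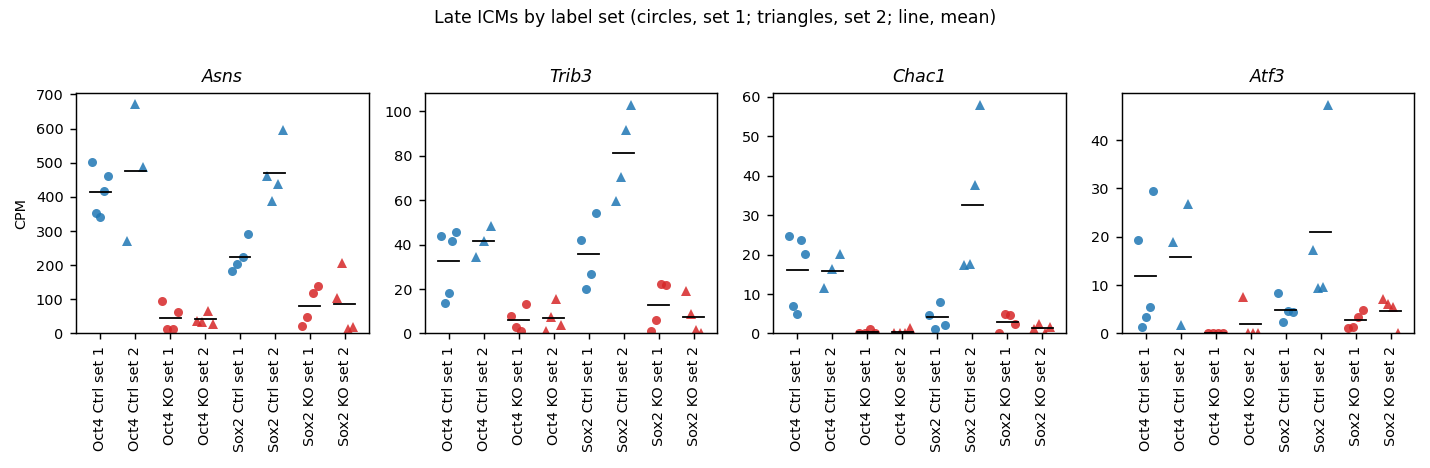
CPM of Asns, Trib3, Chac1 and Atf3 in late ICMs, 1 point per embryo with a line at the mean, split by line, genotype and label set (circles set 1, triangles set 2). Sox2 Ctrl ICMs of set 2 lie at 388 to 596 CPM of Asns and those of set 1 at 183 to 291 CPM, while the Oct4 Ctrl sets overlap.

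Whether the KO effects differed was tested as a difference of effects in the same fit. The Oct4-KO effect on Asns was stronger in late than in early ICMs by -2.23 ± 0.59 (log2, adjusted p = 0.014), the 1 member called where 3.11% of all genes were. For the Sox2-KO effect, where 0.0427% of all genes changed between the stages, 0 members were called by edgeR and 0 by DESeq2, and 1, Chac1 (-2.49 ± 1.14, adjusted p = 0.41), had an unadjusted p under 0.05. Between the lines, 0 members were called by either tool in early ICMs, where 5.52% of all genes were, with 3 at an unadjusted p under 0.05. In late ICMs likewise 0 were called by either tool, where 6.3% of all genes were, with 2 at an unadjusted p under 0.05, Asns at -1.29 ± 0.57 (adjusted p = 0.16) and Chac1 at -2.15 ± 1.08 (adjusted p = 0.23). For neither gene did the difference between the lines pass the threshold.

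Marker genes of the ICM's own and neighboring cell types moved in the same comparisons. The 10 epiblast markers include Pou5f1 and Sox2, the targeted genes, whose fall in KO embryos of their own line follows from the genotype. Pou5f1 was called lower in late (-7.12) and early (-6.07) Oct4-KO ICMs, and Sox2 in late (-3.35) and early (-2.12) Sox2-KO ICMs (log2 fold changes). The summed level of 10 trophectoderm markers was 266, 712 and 1116 CPM in Oct4 Ctrl late ICMs and 1604, 2860 and 3088 CPM in Oct4-KO late ICMs, with 8 of 10 called higher, and that of 10 epiblast markers was 2772, 3330 and 4397 CPM against 529, 952 and 1434 CPM, with 9 of 10 called lower. The sum of 10 primitive endoderm markers was 283, 664 and 1482 CPM in Ctrl and 910, 1353 and 1610 CPM in KO, where of 8 tested 2 were called higher and 4 lower. In Sox2 late ICMs the trophectoderm sum was 262, 576 and 2948 CPM in Ctrl and 635, 996 and 1867 CPM in KO, the epiblast sum 2905, 3442 and 4887 CPM against 1561, 1911 and 2533 CPM, and the primitive endoderm sum 386, 633 and 1913 CPM against 564, 747 and 1270 CPM. Of these, 3 of 10 trophectoderm markers were called higher and 1 lower, and 5 of 10 epiblast markers lower, and of 8 primitive endoderm markers tested 1 was called lower, Lama1 (-1.73, adjusted p = 0.026), and 0 higher. No marker of these 3 lists was at 0 in every embryo of a late Ctrl or KO group. In early ICMs the trophectoderm sum was 476, 650 and 1460 CPM in Oct4 Ctrl against 970, 1262 and 1564 CPM in KO, and 157, 459 and 640 CPM in Sox2 Ctrl against 586, 886 and 2094 CPM in KO, with 3 and 5 of 10 called higher and 1 lower in each line, and the epiblast sum was 2576, 2845 and 3948 CPM against 1540, 1669 and 2217 CPM, and 1758, 2068 and 3938 CPM against 1588, 1810 and 2008 CPM, with 8 and 5 of 10 called lower. The primitive endoderm sum in early ICMs was 591, 789 and 936 CPM in Oct4 Ctrl against 807, 1142 and 1306 CPM in KO, where of 8 tested Dab2 (2.45) was called higher and Sox17 (-4.72) and Pdgfra (-2.31) lower, and 226, 760 and 902 CPM in Sox2 Ctrl against 567, 843 and 918 CPM in KO, where Dab2 (1.79) was called higher. The part of these markers in the members' differences was not tested.

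The wider pathway was followed with 9 lists of genes. In late Oct4-KO ICMs most of the genes tested for amino acid synthesis and transport were called lower. Of 12 amino acid synthesis genes tested, 9 were called lower and 1 higher, beside 8.85% and 9.25% of all genes, with a median log2 fold change of -1.89 where the median of all genes was -0.01. The 3 with the largest change were Pck2, which makes phosphoenolpyruvate in mitochondria (-6.36 ± 0.51), Pycr1, the last step of proline synthesis (-4.04 ± 0.47), and Gpt2, a mitochondrial alanine aminotransferase (-3.70 ± 0.48). The 1 called higher was Phgdh, the first enzyme of serine synthesis (2.61), named after its value was seen. Of 8 amino acid transporters tested, 7 were called lower (median -2.30), led by Slc7a3, a carrier of cationic amino acids (-4.66 ± 0.63), Slc1a4, a carrier of neutral ones (-3.99 ± 0.57), and the glycine transporter Slc6a9 (-2.46 ± 0.73). Of 13 aminoacyl-tRNA synthetases and related genes, 6 were called lower and 0 higher (median -0.96), with Cars at -1.68 ± 0.22, Lars at -1.44 ± 0.18 and Gars at -1.16 ± 0.15. All log2 fold changes in this paragraph with an SE had adjusted p values of 0.0054 or below.

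The upstream arm and other stress programs were counted in the same late Oct4-KO ICMs, where 8.85% of all genes were called lower and 9.25% higher. Of 14 genes for eIF2 kinases, their regulators, eIF2, its exchange factor and a phosphatase subunit, 1 was called, Eif2ak4, which encodes the amino acid sensor GCN2 (-1.12 ± 0.43, adjusted p = 0.038). Among 8 partners of ATF4, Jdp2 (-2.81) and Cebpb (-1.73) were lower and Xbp1, a factor of the unfolded protein response, was higher (1.55). Of 10 other stress targets 3 were lower, Nupr1 (-5.75), Stc2 (-4.21) and Gdf15 (-3.16), and 2 higher. Of 11 endoplasmic reticulum chaperones and related genes 5 were called higher (median 0.97), among them Calr (1.33) and Hyou1 (1.28), with Herpud1, which also answers to ATF4, the 1 called lower (-2.03). Of 10 targets of p53, 5 were called higher and 0 lower (median 1.01), led by Btg2 (2.41), Ccng1 (1.49) and Zmat3 (1.44). Among the 9 immediate early genes tested, 2 were higher and 3 lower, and the sum of the 10 genes of that list was 258, 464 and 581 CPM in KO and 459, 975 and 1448 CPM in Ctrl ICMs. Its part in the members' differences was not tested.

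In late Sox2-KO ICMs genes of amino acid synthesis and transport were called lower as well. Beside 3.61% of all genes, 7 of 12 synthesis genes were called lower and 0 higher (median -1.20), with Pycr1 at -1.90 ± 0.39, Gpt2 at -1.82 ± 0.35 and Pck2 at -1.72 ± 0.29 (adjusted p at most 1.8e-04). Of 8 transporters 5 were called lower (median -1.39), with Slc7a3 at -5.35 ± 0.66, Slc1a4 at -2.33 ± 0.46 and Slc7a1 at -1.84 ± 0.38 (adjusted p at most 2.0e-04). Only Lars (-1.001) was called among 13 synthetases, Cebpb (-1.002) among 8 partners, and Gdf15 (-2.71) and Nupr1 (-2.68) among 10 other targets. None of the 14 eIF2 genes, 11 chaperones or 10 p53 targets was called by edgeR. Of 9 immediate early genes 2 were higher and 2 lower, with a sum of 277, 585 and 962 CPM in KO and 642, 808 and 1503 CPM in Ctrl ICMs.

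In early Oct4-KO ICMs, where 6.11% of all genes were called lower and 4.77% higher, 4 of 12 synthesis genes were called lower and 1 higher, led by Pck2 (-5.29), Gpt2 (-3.04) and Mthfd2 (-1.63), and 1 of 8 transporters, Slc1a4 (-6.32), was lower. Eif2ak4 (-1.85), Jdp2 (-2.34) and Nupr1 (-4.70) were lower, Xbp1 (2.30), Pmaip1 (1.98) and Calr (1.01) higher, and 0 of 13 synthetases and 0 of 10 p53 targets were called. With Sox2 lost, where 1.69% of all genes were called lower and 1.57% higher, Mthfd2 (-1.11), the transporters Slc7a3 (-3.67), Slc1a4 (-1.92) and Slc7a1 (-1.36), and Nupr1 (-1.72) were called lower and Nfe2l2 (1.13) higher, and none of the eIF2 genes, synthetases, chaperones or p53 targets was called by edgeR. Of the 9 immediate early genes, 2 were higher and 3 lower with Oct4 lost, and 1 was higher and 2 lower with Sox2 lost, with sums of 147, 198 and 261 CPM in Oct4-KO against 130, 255 and 400 CPM in Ctrl ICMs and of 158, 297 and 437 CPM in Sox2-KO against 273, 397 and 591 CPM. Their part in the members' differences was not tested at either stage. From early to late ICM in the Ctrl embryos, 7 of 12 synthesis genes and 7 of 8 transporters were called higher in the Oct4 line, beside 9.52% of all genes, with 1 synthesis gene lower, beside 6.04%. In the Sox2 line 2 of 12 and 4 of 8 were called higher, beside 1.94%. The Ctrl late ICMs serve both comparisons, so the 2 counts are not independent of each other, and whether a list's differences changed between stages was not tested.

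**Figure D4:**
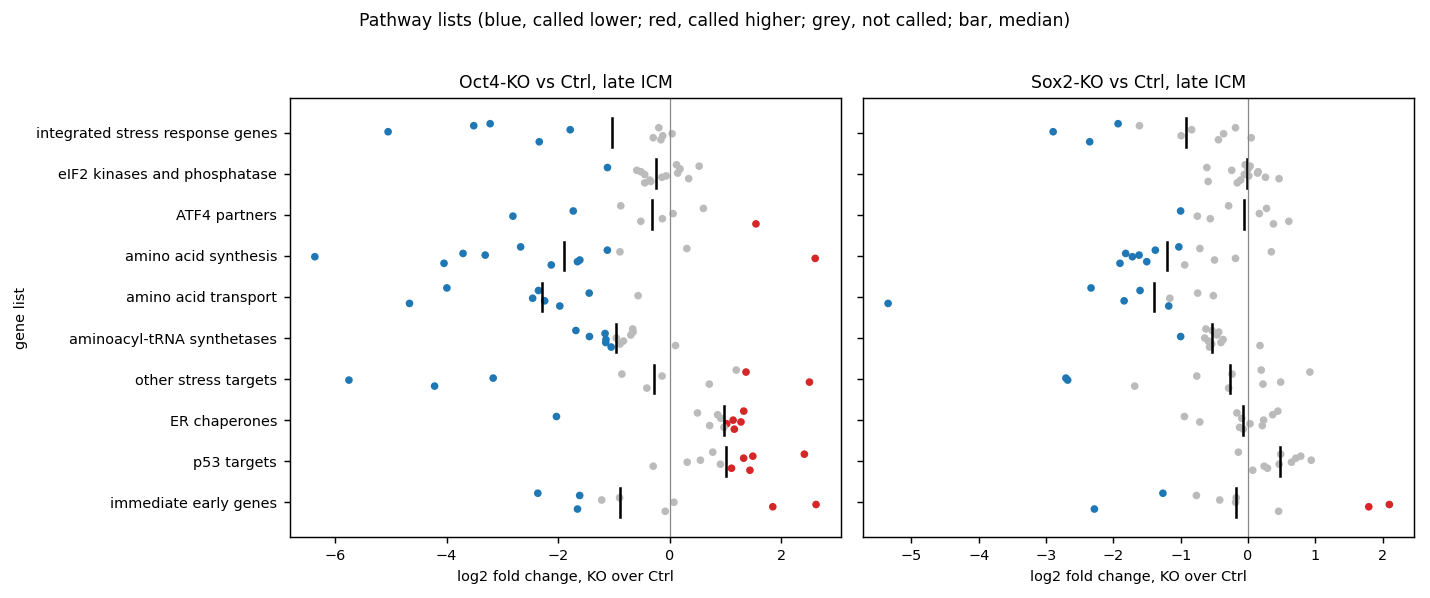
Log2 fold change, KO over Ctrl, of each gene of the members and the 9 pathway lists in late ICMs of the Oct4 line (left) and the Sox2 line (right), with 1 point per gene (blue called lower, red called higher, grey not called) and a bar at the list's median. With Oct4 lost, the medians stand at -1.89 for amino acid synthesis and -2.30 for transport and at 0.97 for chaperones and 1.01 for p53 targets.

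Embryos with the maternal gene intact (MWT) were set against Ctrl embryos of the same line, which lacked the maternal gene. In Oct4 MWT morulae, where 0.0646% of all genes were called, edgeR and DESeq2 each called 0 members, and 0 had an unadjusted p under 0.05. In Oct4 MWT early ICMs (0.373% of all genes) both tools called 0 members, and 4, Atf4, Atf5, Chac1 and Sesn2, had an unadjusted p under 0.05. Asns in these 5 embryos was at 29.5, 30.1, 59.1, 90.5 and 267 CPM, within the 14.6 to 317 CPM of the 8 Ctrl ICMs. Trib3 was at 5.57, 9.50, 10.0, 16.6 and 26.1 CPM, also within the Ctrl range. In Oct4 MWT late ICMs (0.797% of all genes), which carry no label set and were set against Ctrl ICMs of both, the tools again called 0, and 0 had an unadjusted p under 0.05. There Asns was at 23.1, 299 and 449 CPM and Chac1 at 1.78, 11.2 and 92.8 CPM. For Asns, 2 of 8 MWT ICMs were below every Ctrl ICM, and for Chac1 2 of 8 were below and 2 above every Ctrl ICM.

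In Sox2 MWT early ICMs, where 2.58% of all genes were called, 1 of 10 members was called, Ppp1r15a. It was at 9.90, 20.7 and 24.5 CPM in the 7 MWT and 18.1, 39.8 and 51.9 CPM in the 8 Ctrl ICMs, a log2 fold change of -1.01 ± 0.27 (adjusted p = 0.0093), and 3 of 7 MWT ICMs were below every Ctrl ICM. The same groups stood apart in the summed primitive endoderm markers, at 983 to 1470 CPM in MWT and 226 to 902 CPM in Ctrl ICMs, and in the mitochondrial share of UMIs, at 3.15 to 4.34% and 4.42 to 5.24%, and the part of either in the members' values was not tested. Asns (-1.20 ± 0.45, adjusted p = 0.095), Chac1 (1.93 ± 0.72, adjusted p = 0.094) and Ddit4 (1.37 ± 0.48, adjusted p = 0.070) were not called by edgeR, while DESeq2 called Ddit4 higher (1.35, adjusted p = 0.038).

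Between embryos of the same group some members rose and fell together. Correlations were computed for the 8 members whose mean reached 5 CPM, on log2(CPM + 1) after the group mean was subtracted, over all embryos of the 16 groups and 28 pairs, with permutation p values adjusted over the pairs. Of these pairs 11 were called by Pearson's r, all 11 positive, and 8 also by Spearman's rho. Trib3 and Asns were highest, at r = 0.617 and rho = 0.637 (permutation p = 1e-05 for each, the smallest that 100000 resamples give, adjusted p = 7.0e-05 for r and 9.3e-05 for rho), and r was 0.619 without the 2 embryos farthest from the median. By stage it was 0.181 in morulae, 0.659 in early ICMs and 0.791 in late ICMs, and 0.810 in late Ctrl and KO ICMs centered within label set. Trib3 with Ddit4 followed (r = 0.434, rho = 0.391), then Sesn2 with Ddit4 (0.426 and 0.480), Atf5 with Asns (0.421 and 0.370), Atf4 with Trib3 (0.411 and 0.443) and Atf5 with Trib3 (0.365 and 0.307), each with an adjusted permutation p of at most 0.0064. Within late label sets these r were 0.553, 0.507, 0.415, 0.305 and 0.491. In morulae alone the same r were 0.0685, 0.426, -0.295, 0.274 and -0.0308, with both Atf5 pairs below 0, and in early ICMs they were 0.472, 0.354, 0.598, 0.430 and 0.369. Called with a smaller r were Ddit3 with Ddit4 (0.291) and with Ppp1r15a (0.260) and Trib3 with Ppp1r15a (0.259). Atf4 with Asns (0.243) and Atf5 with Sesn2 (0.239) were called as well. Within late label sets these were 0.276, -0.0680, 0.213, 0.140 and 0.125. The call of Ddit3 with Ddit4 was lost on the rlog values (adjusted permutation p = 0.054), where 3 other pairs were gained. That of Atf5 with Sesn2 was lost without the 2 farthest embryos (adjusted permutation p = 0.061).

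Atf4 and Ppp1r15a stood lowest, at r = -0.113 (permutation p = 0.25, adjusted 0.31), with -0.529 in morulae, -0.112 in early ICMs and 0.188 in late ICMs, and Ddit3 with Asns at -0.0569. The members of a pair were read from the same library, so they share its depth, and the correlation of each member with total UMIs ran from -0.0726 to 0.0931. The summed epiblast markers correlated at 0.318 with Asns and 0.321 with Trib3 over the same embryos, and their part in the pair's correlation was not tested.

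**Figure D5:**
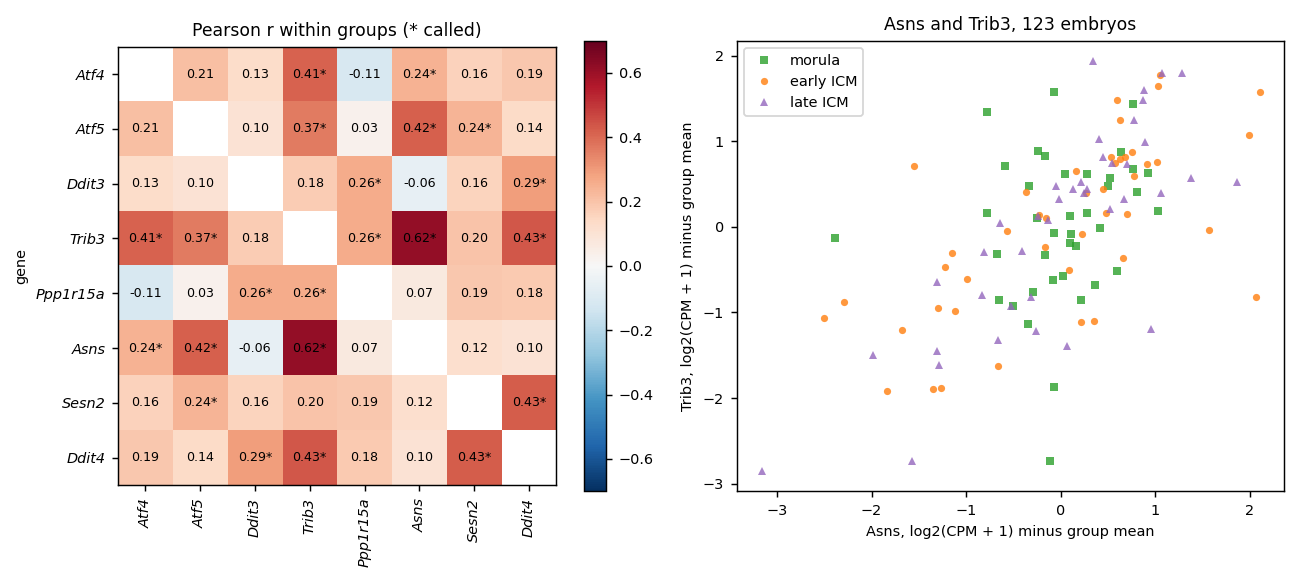
Pearson's r between members over all embryos after the group means were subtracted (left, asterisks mark pairs with an adjusted permutation p under 0.05) and Asns against Trib3 in each embryo as the deviation from its group mean in log2(CPM + 1) (right). The Trib3 and Asns pair stands at 0.617 and the Atf4 and Ppp1r15a pair at -0.113.

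Across the 16 group means, the genes most like a member were sought among 9389 genes whose mean reached 5 CPM, by Pearson's r of the mean log2(CPM + 1). For Asns these were Ddr2, Mitf and Lifr (0.967, 0.964 and 0.957), for Trib3 the transporter Slc7a3, Adat2 and Zscan10 (0.943, 0.938 and 0.927), for Atf4 Prrc2b, Lamc1 and Snap47 (0.965, 0.964 and 0.959), and for Ddit3 Zfp870, Map3k4 and Akap9 (0.871, 0.857 and 0.850). With 16 points that share stage and line, these are descriptions. Among the members themselves, Asns was at 0.899 with Atf5, 0.865 with Trib3 and 0.859 with Atf4, ranks 48, 135 and 162 among the genes compared with it. It was at 0.713 with Sesn2, 0.572 with Ddit3, 0.555 with Ppp1r15a and 0.0409 with Ddit4, ranks 1249, 2220, 2345 and 5037.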

How the data were processed

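Single mouse embryos were profiled by 3′-end RNA-seq with UMIs. The deposited UMI counts per gene were made by the authors with UMI-tools, cutadapt, TopHat2 (Bowtie2, build mm10) and featureCounts, corrected with TRUmiCount. Their deposited log2 values are rlog values from DESeq2 for 15747 genes. Strand use in counting and tool versions are not given in the sources used here. Counts were tested with the quasi-likelihood test of edgeR 4.0.16 in R 4.3.3 (TMM scaling) with Benjamini-Hochberg adjustment over all genes tested: 14053 genes in 1 fit of 96 Ctrl and KO embryos, 13923 genes in 1 fit of all embryos for MWT comparisons. Genes needed at least 1 UMI in at least 0.5 of the embryos of a stage, and a call an adjusted p under 0.05 with a log2 fold change of 1 or more in size. Levels are CPM of total UMIs, and log values use a pseudocount of 1 CPM. Total UMIs were 525755 to 1344035 per embryo. Exact intervals and floors (3 UMIs) cover counting error only.

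The 10 members and the gene lists were chosen with earlier results of these data known. All members are named, with, for each other list and KO comparison in ICMs, up to 3 called genes of largest change. Each library is 1 embryo, and p-values measure the spread between embryos. No 2 libraries of a group agreed within sampling noise (lowest chi-square per degree of freedom 2.32 over 416 pairs). Embryo numbers shared by Ctrl and KO groups gave correlations of deviations of -0.0753 to 0.23 and were not taken as pairs. The edgeR step was tested on simulated data for Oct4-KO against Ctrl late ICMs: of 50 genes each, 90% were called at a true log2 change of -3, 94% at -2, 100% at 2 and 100% at 3, and 0.0217% of 13853 unchanged genes. Alternatives were DESeq2 1.42.0, limma 3.58.1 on the rlog values, other scalings and filters, thinning, the replicate block, label sets and left-out embryos. Correlations and permutation tests used Python 3.11.15 with scipy 1.17.1, and figures matplotlib 3.10.9. Promoters came from RefSeq (GRCm38.p6). Spike-in counts were not used here.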

Additional observations from a re-analysis of the deposited data

Results flagged for a closer look

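In 9 of 118 sets of values (7.63%, where chance gives about 1 in 20), the highest or lowest embryo stood apart from its group by Dixon's criterion. The low values were Atf4 at 254 CPM in Sox2 Ctrl late ICM 2-1, Atf5 at 2.30 CPM in Oct4 Ctrl early ICM 1, Asns at 7.32 CPM in Oct4-KO early ICM 14 and at 23.1 CPM in Oct4 MWT late ICM 20, Sesn2 at 33.3 CPM in Oct4-KO early ICM 11 and at 52.0 CPM in Oct4 Ctrl late ICM 1-3, and Ddit4 at 11.7 CPM in Oct4 MWT morula 1 and at 0 in Sox2-KO late ICM 2-10. The high value was Ppp1r15a at 79.0 CPM in Sox2-KO late ICM 1-5.

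The Oct4-KO effect on Asns differed between late and early ICMs by -2.23 on the log2 scale (edgeR, adjusted p = 0.014).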

How the results depend on the processing

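Of 152 recomputed counts of called members, 133 stayed within 1.5 times the reported count. These include many comparisons with 0 members called in both, which count as unchanged. With limma on the rlog values the count was 0 for Oct4-KO early ICMs (4 reported), 1 for Sox2-KO early ICMs (2 reported), 2 for each line's Ctrl step from morula to early ICM (6 and 4 reported) and 2 for the change of the Oct4-KO effect between stages (1 reported). Over all genes, calls on these shrunken values fell as well. Of 15747 genes 608 were called for Oct4-KO early ICMs, against 1529 of 14053 with edgeR. The counts were 208 against 459 for Sox2-KO early ICMs. For the Ctrl step they were 1936 against 4080 in the Oct4 line and 2246 against 4489 in the Sox2 line. For the change of the Oct4-KO effect they were 424 against 437. For Sox2-KO early ICMs the member count was also 1 with DESeq2 and with all embryos in the fit. DESeq2 gave 2 for Sox2 MWT early ICMs (1 reported). Without the fold minimum the Sox2 Ctrl step from morula to early ICM gave 7 (4 reported).

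With the replicate block, which uses embryos that share a number, the count was 1 for Oct4-KO morulae (Ddit4, 1.27), 1 for Oct4-KO early ICMs (Asns, called higher, and none of the 4 reported), 2 for Sox2-KO early ICMs and 3 for Sox2-KO late ICMs. The same embryos fitted without the block gave 0, 1, 0 and 2. In these fits the sign turned in Oct4-KO morulae for Atf5 (0.40 with the block, 0.31 without) and Trib3 (-1.01 and -1.11), and in Oct4-KO early ICMs, with 2 embryos a group, for Trib3 (1.27 and 1.25) and Asns (1.11 and 1.12, adjusted p = 0.013 and 0.016, against -0.98 reported). No paired analysis was possible for Oct4 late ICMs and Sox2 morulae because they share 1 and 0 numbers.

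Chosen after seeing the data were the label sets fitted separately and the left-out embryos, apart from each Oct4 MWT early ICM. Label set 2 alone gave 3 for Oct4-KO late ICMs and set 1 alone gave 0 for Sox2-KO late ICMs, where Ddit3 was 0.38 in set 1 and Ppp1r15a -0.46 in set 2. For the Ctrl step from early to late ICM, set 1 alone gave 3 in the Oct4 line and 2 in the Sox2 line, where Ppp1r15a was -0.18, and set 2 alone gave 3 and 8 (5 and 7 reported). Leaving out 1 embryo gave 3 to 5 for Oct4-KO early ICMs and 3 to 5 for the Oct4 Ctrl step from early to late ICM, and Chac1 in Oct4 MWT late ICMs was -0.38 without embryo 11 and 0.56 without embryo 20. Other reversals were Atf5 in Sox2-KO morulae (0.59, counts thinned to 525755 UMIs) and Atf3 in the change of the Oct4-KO effect (-0.076 with DESeq2, -0.87 with rlog). The causes were not tested. At this depth Atf3, Chac1 and Atf5 rest on few UMIs per embryo.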

Other observations

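Oct4 MWT late ICM 11 held 92.8 CPM of Chac1 and 124 CPM of Trib3, while Oct4 MWT late ICM 20 held 1.78 CPM of Chac1 and 23.1 CPM of Asns. Both embryos carry the same labels.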
